A study of Bos taurus with 12 samples.

Results

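The cytosolic DNA sensor cGAS and 8 genes of interferon signalling were followed through the differentiation of bovine myoblasts into myotubes. The 9 genes were taken by symbol from a table of 18436 genes: the sensors CGAS and IFIH1, the transducers STAT2 and IRF9, the interferon regulatory factors IRF1, IRF3 and IRF7, and the interferon-stimulated genes ISG15 and MX1. The genes were taken by name, not by a threshold on a measured value, and each had 1 row. The m6A peaks whose deposited annotation named one of these genes were added, which gave 14 peaks in myoblasts and 16 in myotubes.

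Primary myoblasts came from the longissimus dorsi, a back muscle, of newborn Qinchuan cattle, and the study's methods speak of a single newborn donor. Proliferating myoblasts (GM) were harvested at 80% confluence in growth medium with 20% fetal bovine serum, and myotubes (DM) after 4 days in differentiation medium with 2% horse serum, so differentiation, medium, serum and density changed together and cannot be told apart. The labels name no edited gene and no added agent in either group. Each group had 3 input libraries, which are RNA-seq of fragmented poly(A) RNA, and 3 libraries of the same kind of RNA precipitated with an antibody to N6-methyladenosine (m6A), 12 libraries in all. The study calls the libraries of a group biological replicates, but the labels do not say that they came from separate cultures, so the p-values measure the spread between libraries, which may be technical.

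Cells detect misplaced nucleic acid by sensors in the cytosol. cGAS binds double-stranded DNA and makes the messenger cGAMP, which activates STING, whereas IFIH1, also called MDA5, binds long double-stranded RNA and acts through MAVS. Both routes activate the kinase TBK1, which phosphorylates IRF3 and IRF7, and these switch on the genes of type I interferons. Secreted interferon then binds IFNAR1 and IFNAR2, and STAT2 and IRF9 act in the complex ISGF3, which induces interferon-stimulated genes such as MX1 and ISG15. In skeletal muscle, products of this pathway are known for their high level in dermatomyositis.

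The input values are FPKM, fragments scaled by exon length and by mapped reads, and were tested with limma on log2(FPKM + 1) over the 12302 genes whose average reached 0.5 FPKM. A gene is said to have risen or fallen in DM at a Benjamini-Hochberg adjusted p under 0.05 over those genes, and is called differentially expressed at p under 0.05 with a change over 1.5-fold, the thresholds of the study. All log2 fold changes are DM minus GM on that scale, which understates changes, most in genes near or below 1 FPKM but also at several FPKM. For MX1 the log2 fold change was -1.33 on this scale and -1.66 with 0.1 added in place of 1. The FPKM summed to 415740.2 to 434458.3 in the GM libraries and to 386436.5 to 390826.9 in the DM libraries, and the read depth behind a value is unknown from the table. Markers of the labelled cell type were present, and the summed FPKM of the 10 muscle markers was 1130 to 1210 in GM and 1570 to 1620 in DM. Of these markers 4 rose (MYH3, MYOG, CKM and TNNT3), 4 fell (PAX7, MYF5, MYOD1 and ACTA1), and DES and MYMK did not pass the test. MYH3 was the most abundant of those that rose in DM (273 ± 2.74 and 659 ± 15.0 FPKM). MYOG stood at 197 ± 8.95 FPKM already in GM and at 243 ± 14.9 FPKM in DM. MYOD1 fell from 61.6 ± 3.94 to 24.8 ± 1.17 FPKM, and ACTA1 fell by 0.64 on the log2 scale (limma adjusted p = 0.011). Whether part of the GM cells had begun to differentiate was not tested. Fibroblast markers, collagens among them, summed to 13600 to 13800 FPKM in GM and 13900 to 14600 in DM. The 5 immune markers in the table summed to at most 2.10 FPKM in any library, and 3 defining ones, PTPRC, ITGAM and CD3E, were not among its rows. In bulk RNA, fewer cells that express a gene and less of its RNA per cell cannot be told apart.

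Of the 9 genes, 7 passed the filter on low values, and of these STAT2 and IRF9 rose in DM, CGAS, IRF1, IRF3 and MX1 fell, and ISG15 did not pass the test. Over all tested genes 42.8% passed, 16.1% as higher and 26.7% as lower in DM. IRF1 and MX1 were differentially expressed, both lower in DM, beside 11.9% of all tested genes (4.90% higher and 6.97% lower). With the adjusted p in place of the unadjusted one the same 2 genes were called, beside 4.89% of all tested genes as higher and 6.88% as lower. CGAS passed the filter through its GM level, so these counts describe the genes and support no statement about the group. IFIH1 and IRF7 stayed under the filter. The GM and DM libraries did not overlap in 7 of the 9 genes, beside 42.1% of all genes in the table. Of the 7 tested, 6 did not overlap, 4 with DM below GM and 2 with DM above, beside 33.0% and 21.1% of all tested genes. The plot of FPKM by library shows the spread of each gene.

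**Figure D1:**
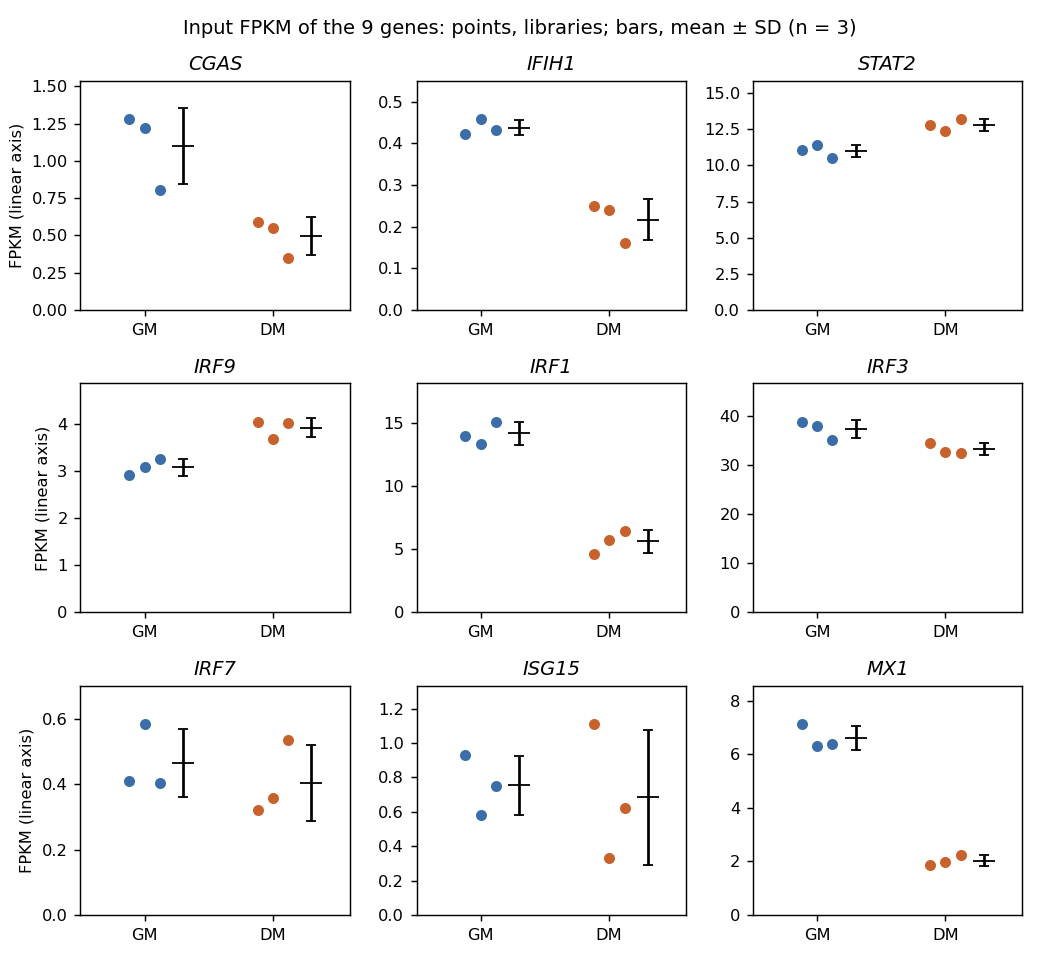
Input FPKM (linear axis from 0, own scale for each gene) of the 9 genes in the 3 GM (blue) and 3 DM (orange) libraries, with black bars for the mean ± SD. The GM and DM points are apart in all genes except IRF7 and ISG15, and MX1 and IRF1 show the widest separation relative to their level.

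CGAS, the DNA sensor, is at ENSBTAG00000000892 on the minus strand of chr9:12934833-12958092 (ARS-UCD1.2, the build of all positions here). Its FPKM was 1.28, 1.22 and 0.806 in the GM libraries and 0.592, 0.548 and 0.352 in the DM libraries. All DM values were below all GM values, and the third library was the lowest of its group in both. The mean fell from 1.10 ± 0.258 to 0.497 ± 0.128 FPKM (SD, n = 3 per group), a GM to DM ratio of 2.22. The fitted log2 fold change was -0.49 (SE 0.116, 95% interval -0.75 to -0.22, limma adjusted p = 0.010). With a pseudocount of 0.1 instead of 1 the log2 fold change of CGAS was -1.01 (adjusted p = 0.012), which would pass 1.5-fold.

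IFIH1, the sensor of long double-stranded RNA (ENSBTAG00000008142, chr2:34111730-34166890, plus strand), was the lowest of the 9 genes in both groups. Its FPKM was 0.422, 0.458 and 0.433 in GM and 0.249, 0.241 and 0.161 in DM. The GM libraries were close together and above every DM library, with a difference of -0.221 FPKM (exact two-sided permutation test, p = 0.10, the smallest value that 3 against 3 libraries allow). Of genes under the filter, 18% had groups that did not overlap. Fitted without the filter, the log2 fold change of IFIH1 was -0.24 (limma adjusted p = 0.0055).

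The other sensors and adaptors of the DNA and RNA routes were described by a list of 21 symbols, of which 19 were in the table and 17 passed the filter. None rose and 5 fell (29.4%, beside 26.7% of all tested genes), and the list's median log2 fold change was -0.08, beside -0.05 over all tested genes. STING1, the adaptor that cGAMP activates, is listed in the table as TMEM173. Its FPKM was 2.81, 2.55 and 2.02 in GM and 0.984, 0.837 and 1.03 in DM. STING1 was therefore lower in every DM library, from 2.46 ± 0.404 to 0.950 ± 0.101 FPKM. Its log2 fold change was -0.82 (SE 0.101, limma adjusted p = 3.5e-04), and it was the only differentially expressed gene of the list. ZCCHC3 fell from 8.47 ± 0.261 to 5.49 ± 0.732 FPKM, a GM to DM ratio of 1.54. On the log2(FPKM + 1) scale its change of -0.55 (limma adjusted p = 0.0012) stayed under 1.5-fold. ZCCHC3 was named beyond the rule for named genes, after its values were seen. MAVS, the adaptor of IFIH1, stood at 7.35 ± 0.0978 and 7.23 ± 0.430 FPKM and did not pass the test (log2 fold change -0.02, adjusted p = 0.81). The kinase TBK1 stood at 7.83 ± 0.563 and 7.6 ± 0.632 FPKM (log2 fold change -0.04, adjusted p = 0.72). MAVS and TBK1 are named here beyond the rule for named genes, as the steps that the background describes. ADAR, an RNA-editing enzyme and the most abundant gene of the list, had a log2 fold change of -0.08 and did not pass the test, and its sign turned with the TPM scaling (0.04).

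STAT2 is a subunit of the ISGF3 complex, and its gene (ENSBTAG00000004380) is at chr5:56997911-57009477 on the plus strand. Its FPKM was 11.1, 11.4 and 10.5 in GM and 12.8, 12.4 and 13.2 in DM. Every DM library lay above every GM library, by a small margin. The mean rose from 11 ± 0.443 to 12.8 ± 0.414 FPKM, a log2 fold change of 0.20 (SE 0.056, 95% interval 0.07 to 0.33, limma adjusted p = 0.019). The call was lost without GM library 1 (adjusted p = 0.050), DM library 1 (0.063) or DM library 3 (0.071). STAT2 shares 90 bases at its end with IL23A on the opposite strand, which stood at 3.33 ± 0.642 and 3.17 ± 0.575 FPKM.

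IRF9, the DNA-binding subunit of ISGF3 (ENSBTAG00000005816, chr10:20986934-20992851, minus strand), moved the same way as STAT2. The GM libraries had 2.91, 3.08 and 3.25 FPKM and the DM libraries 4.05, 3.69 and 4.03 FPKM. The groups did not overlap, and the mean rose from 3.08 ± 0.173 to 3.92 ± 0.201 FPKM. The log2 fold change was 0.27 (SE 0.068, 95% interval 0.12 to 0.43, limma adjusted p = 0.013), and the call was lost without GM library 1 (adjusted p = 0.050) or DM library 1 (0.051). RNF31 shares 335 bases with IRF9 on the same strand, so reads there cannot be assigned to either gene by strand. RNF31 stood at 5.57 ± 0.270 and 6.48 ± 0.416 FPKM (log2 fold change 0.18, adjusted p = 0.056).

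The list of receptors and signal transducers held 10 symbols, of which 9 were in the table and tested. IFNGR2 rose (11.1%, beside 16.1% of all tested genes), and IFNAR1, IFNAR2 and IL10RB fell (33.3%, beside 26.7%). IFNAR1 and IFNAR2, the paired chains of the type I interferon receptor, fell by 0.42 and 0.52 on the log2 scale (limma adjusted p = 0.0019 and 2.6e-04), from 22.6 ± 1.68 to 16.6 ± 1.06 FPKM and from 11.5 ± 0.551 to 7.70 ± 0.333 FPKM. IL10RB, a chain shared by the receptors of interferon lambda and interleukin 10, fell from 10.4 ± 0.751 to 6.54 ± 0.0863 FPKM (log2 fold change -0.59, adjusted p = 1.9e-04). IFNGR2, a chain of the interferon gamma receptor and the most abundant gene of the list, rose from 60.4 ± 0.603 to 67.2 ± 1.70 FPKM (log2 fold change 0.15, adjusted p = 0.026). The IFNGR2 call was lost in 6 of 14 alternatives, among them the omission of GM library 1 (adjusted p = 0.064), GM library 2 (0.069), DM library 1 (0.12) or DM library 3 (0.057). IFNAR1 and IFNAR2 were named beyond the rule for named genes, after their values were seen.

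Among the interferon regulatory factors, IRF1 is itself induced by interferon gamma and activates antiviral and antigen-presentation genes. IRF1 (ENSBTAG00000031231, chr7:21938614-21946679, plus strand) had 14.0, 13.3 and 15.1 FPKM in GM and 4.65, 5.77 and 6.44 FPKM in DM. The lowest GM library was more than 2-fold above the highest DM library. The mean fell from 14.2 ± 0.912 to 5.62 ± 0.904 FPKM, a ratio of 2.52, with a log2 fold change of -1.20 (SE 0.102, 95% interval -1.44 to -0.97, limma adjusted p = 4.6e-05). In GM IRF1 stood above STAT2 and in DM below it, with no overlap between both genes' libraries in either group.

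IRF3, the factor that TBK1 phosphorylates, was the most abundant of the 9 genes in both groups. IRF3 (ENSBTAG00000006633, chr18:56062452-56068031, minus strand) had 38.9, 38.1 and 35.2 FPKM in GM and 34.6, 32.7 and 32.6 FPKM in DM. The lowest GM library lay just above the highest DM library, and the mean went from 37.4 ± 1.91 to 33.3 ± 1.15 FPKM. The log2 fold change was -0.16 (SE 0.056, 95% interval -0.29 to -0.03, limma adjusted p = 0.047). This call was lost in 10 of 14 alternatives, among them TPM scaling (log2 fold change -0.04, adjusted p = 0.66) and size factors (-0.10, adjusted p = 0.17). It was also lost without the filter, with the replicate number as a block, without the variance trend and with the omission of any library other than GM 3. The call for IRF3 was therefore not stable to the settings, scaling among them.

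IRF7, which amplifies the interferon response, was near the bottom of the 9 genes. IRF7 (ENSBTAG00000047680, chr29:50695300-50698405, plus strand) had 0.411, 0.585 and 0.403 FPKM in GM and 0.321, 0.358 and 0.537 FPKM in DM. The groups overlapped, and the difference of -0.0608 FPKM gave p = 0.50 in the exact two-sided permutation test. IRF7 shares 207 bases at its end with PHRF1 on the opposite strand, at 5.34 ± 0.0286 and 5.07 ± 0.263 FPKM. Of the other IRF genes in the lists, only IRF2 and IRF5 passed the filter, neither passed the test, and IRF4 and IRF8 had group means of at most 0.0164 FPKM; all but IRF2 were named beyond the rule for named genes. IRF2, the most abundant of them and a repressor that competes with IRF1, had a log2 fold change of -0.09, which turned to 0.02 with TPM scaling.

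MX1, a dynamin-like GTPase that restricts viruses, had the largest fall of the 7 tested genes. MX1 (ENSBTAG00000030913, chr1:141677687-141706496, plus strand) had 7.13, 6.31 and 6.38 FPKM in GM and 1.85, 1.99 and 2.23 FPKM in DM. Both groups were tight and far apart. The mean fell from 6.61 ± 0.456 to 2.03 ± 0.193 FPKM, a ratio of 3.26, with a log2 fold change of -1.33 (SE 0.077, 95% interval -1.51 to -1.15, limma adjusted p = 5.3e-06). MX1 and IRF1 kept adjusted p-values under the threshold in all 14 alternatives, as did CGAS in the 13 that included it. The paralog MX2, named after its values were seen, was at 0 to 0.0399 FPKM in the 6 libraries.

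ISG15, a ubiquitin-like protein that is joined to other proteins, was low and variable. ISG15 (ENSBTAG00000014707, chr16:51464069-51465107, minus strand) had 0.928, 0.582 and 0.752 FPKM in GM and 1.11, 0.329 and 0.620 FPKM in DM. DM held both the highest and the lowest of the 6 values. The means were 0.754 ± 0.173 and 0.685 ± 0.392 FPKM, and the log2 fold change of -0.08 had a wide interval (SE 0.165, 95% interval -0.46 to 0.30, limma adjusted p = 0.73). Without DM library 2 the sign turned to 0.08. MX1 and ISG15, which are known as products of the same interferon response, therefore differed in whether they passed the test; the difference between them was not tested.

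By level, the order in GM was IRF3, IRF1, STAT2, MX1, IRF9, CGAS, ISG15, IRF7 and IFIH1, where each of the last 3 overlapped the gene before it. In DM the order was IRF3, STAT2, IRF1, IRF9, MX1, ISG15, CGAS, IRF7 and IFIH1, where CGAS overlapped ISG15 and IRF7 overlapped CGAS. FPKM is scaled per length of exon, so these levels may be set side by side. IRF3 exceeded 90.6% of the genes in the table in GM, whereas IFIH1 exceeded 32.4%.

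**Figure D2:**
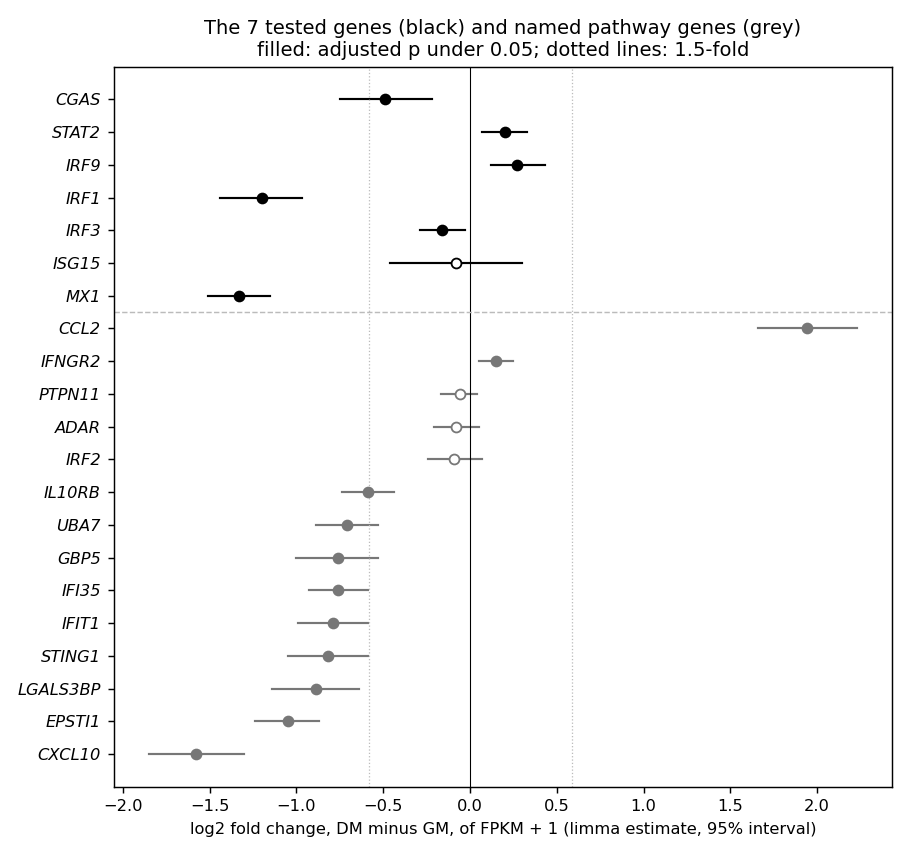
Log2 fold change (x axis, DM minus GM, of FPKM + 1; limma estimate with 95% interval) of the 7 tested genes (black) and of the pathway genes named by rule (grey), with filled points at an adjusted p under 0.05 and dotted lines at 1.5-fold. MX1 (-1.33) and IRF1 (-1.20) lie beyond the 1.5-fold line, while STAT2 (0.20) and IRF9 (0.27) lie to the right of 0.

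Interferon-stimulated effectors other than MX1 and ISG15 formed a list of 54 symbols, of which 42 were in the table, in 43 rows, and 32 rows were tested. Of these 5 rose (15.6%, beside 16.1% of all tested genes) and 13 fell (40.6%, beside 26.7%), and the median log2 fold change was -0.20. CXCL10, a chemokine induced by interferon gamma, had 1.91, 2.33 and 3 FPKM in GM and 0.144, 0.161 and 0.1 FPKM in DM. It fell most of the list, by 1.58 on the log2 scale (SE 0.119, limma adjusted p = 2.3e-05), with no overlap between groups. CXCL10 passed the filter through its GM level only, as CCL5 (0.294 ± 0.0649 and 0.952 ± 0.277 FPKM) did through its DM level, so the list's counts are a description. IFIT1, a binder of viral RNA caps and the most abundant effector, had 80.4, 80.3 and 66.7 FPKM in GM and 42.8, 40.1 and 47.0 FPKM in DM. IFIT1 fell by 0.79 (SE 0.088, adjusted p = 2.0e-04).

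EPSTI1 fell from 12.7 ± 0.377 to 5.62 ± 0.684 FPKM (log2 fold change -1.05, limma adjusted p = 2.7e-05) and LGALS3BP, a secreted galectin-binding protein, from 24.5 ± 1.04 to 12.9 ± 2.36 FPKM (-0.89). UBA7, the activating enzyme for ISG15 conjugation, fell from 4.61 ± 0.121 to 2.43 ± 0.284 FPKM (-0.71, adjusted p = 1.8e-04), while UBE2L6, the conjugating enzyme of the same chain, rose from 1.09 ± 0.212 to 1.66 ± 0.333 FPKM (0.34, adjusted p = 0.041). UBA7 and UBE2L6 thus moved in opposite directions, though the UBE2L6 call was close to the threshold and is given for the main settings only. GBP5, a guanylate-binding GTPase, and IFI35 both fell by 0.76. In the other direction, CCL2, a monocyte chemoattractant that many signals besides interferon induce, had 3.18, 2.92 and 3.22 FPKM in GM and 11.8, 15.8 and 17.3 FPKM in DM, and rose by 1.94 (SE 0.123, adjusted p = 9.0e-06). The remaining genes that rose were IFIT5, IFI6, UBE2L6 and CCL5, with log2 fold changes of 0.34 to 0.58. UBE2L6 and these genes fall outside the rule for named genes and were named after their values were seen.

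Negative regulators of the pathway numbered 15, of which 14 were in the table and tested. TRAFD1 rose (7.14%, beside 16.1% of all tested genes), USP18, PTPN2, TRIM21 and NLRX1 fell (28.6%, beside 26.7%), and none was differentially expressed. USP18, which removes ISG15 from proteins and blocks IFNAR2, went from 1.25 ± 0.168 to 0.842 ± 0.170 FPKM (log2 fold change -0.29, limma adjusted p = 0.046). These 5 were named after their values were seen. PTPN11, a phosphatase and the most abundant of the list, had a log2 fold change of -0.06 and did not pass the test, with the sign turned by TPM scaling (0.06). Of 6 interferon ligand symbols, IFNE and IFNK were in the table, listed at 0 in all GM libraries and at most 0.0726 FPKM in DM, and neither passed the filter. Further ligand rows found after the values were seen, IFNB3 in 2 rows, IFN-TAU and IFNT2, stood at 0 to 0.0759 FPKM over all libraries, with the highest value in GM library 2 for IFN-TAU.

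Over all these lists 74 rows were tested, of which 7 rose (9.46%, beside 16.1% of all tested genes) and 25 fell (33.8%, beside 26.7%), with a median log2 fold change of -0.13. Of the 74, 1 was differentially expressed as higher in DM and 9 as lower, beside 4.90% and 6.97% of all tested genes. The split depended on scaling: with size factors 13 rose and 20 fell, and with TPM 14 rose and 15 fell. The median log2 fold change of all tested genes was -0.05 as deposited, 0.00 with size factors and 0.06 with TPM, and 37.6%, 49% and 59.5% of all called genes were higher in DM. Among the 9 genes, CGAS, IRF1 and MX1 fell and STAT2 and IRF9 rose under both scalings, and with TPM CGAS also passed 1.5-fold (log2 fold change -0.66, limma adjusted p = 0.020), which made 3 differentially expressed genes in place of 2.

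**Figure D3:**
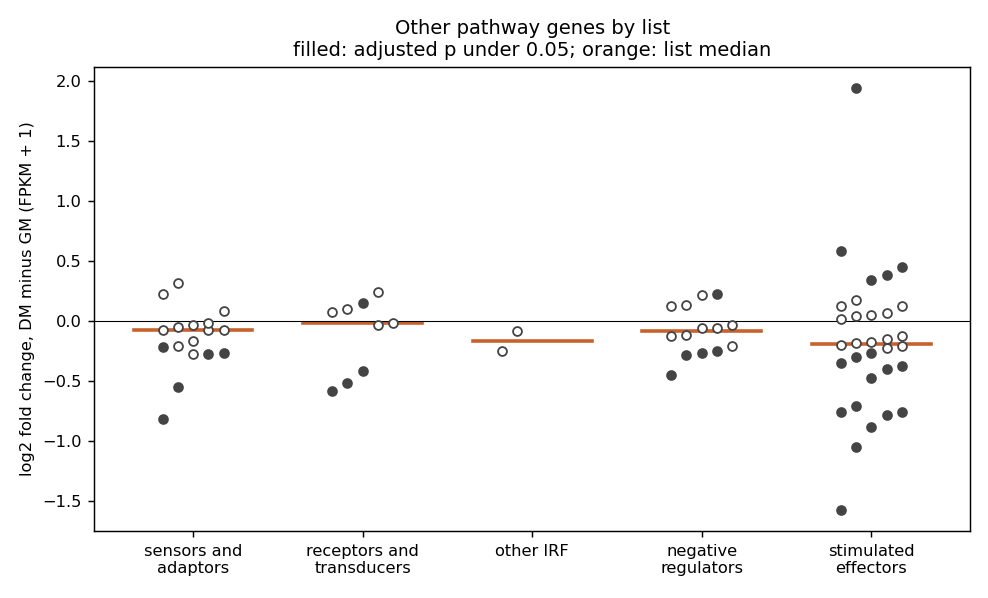
Log2 fold change (y axis, DM minus GM, FPKM + 1) of each tested gene of 5 pathway lists, with filled points at an adjusted p under 0.05 and an orange line at each list's median. The medians run from -0.20 in the stimulated effectors to -0.02 in the receptors and transducers, and CCL2 (1.94) stands alone at the top.

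m6A is a methyl mark on adenosine inside mRNA, which is often found near stop codons and in 3′ UTRs and is read by proteins that affect splicing, translation and decay. The deposited lists give 1 set of peaks for GM and 1 for DM, with the fold enrichment of precipitated RNA over input in each peak and no value per library. Differences in enrichment therefore have no replicate error and were not tested. Peaks were found in 8 of the 9 genes in both lists, and IRF7 was named in neither. A GM peak was listed for 57.0% of all genes and a DM peak for 63.3%, and over genes with a mean within 1.5-fold of each of the 9 the shares were 53.4% to 76.4% and 58.6% to 82.0%. Of genes with a mean within 1.5-fold of IRF7, 55.7% had a GM peak and 61.1% a DM peak. Peaks annotated to PHRF1 on the opposite strand covered up to 207 bases of the IRF7 span in GM and up to 416 in DM.

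In GM 7 of the 14 peaks were annotated to the 3′ UTR, 6 to an exon and 1 to the 5′ UTR, and in DM 9, 4 and 3 of 16. All GM peaks were divided into 42.6%, 41.3% and 16.1%, and all DM peaks into 45.3%, 36.5% and 18.2%, in the same order. A false discovery rate (FDR) under 0.05 was listed for 13 GM and 12 DM peaks, beside 90.3% and 88.8% of all peaks. The peak reached the last base of the gene in 5 GM and 6 DM peaks, beside 22.2% and 30.4% of all peaks. Matched by at least 1 shared exonic base on the same strand, 12 GM peaks and 11 DM peaks overlapped one of the other list.

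**Figure D4:**
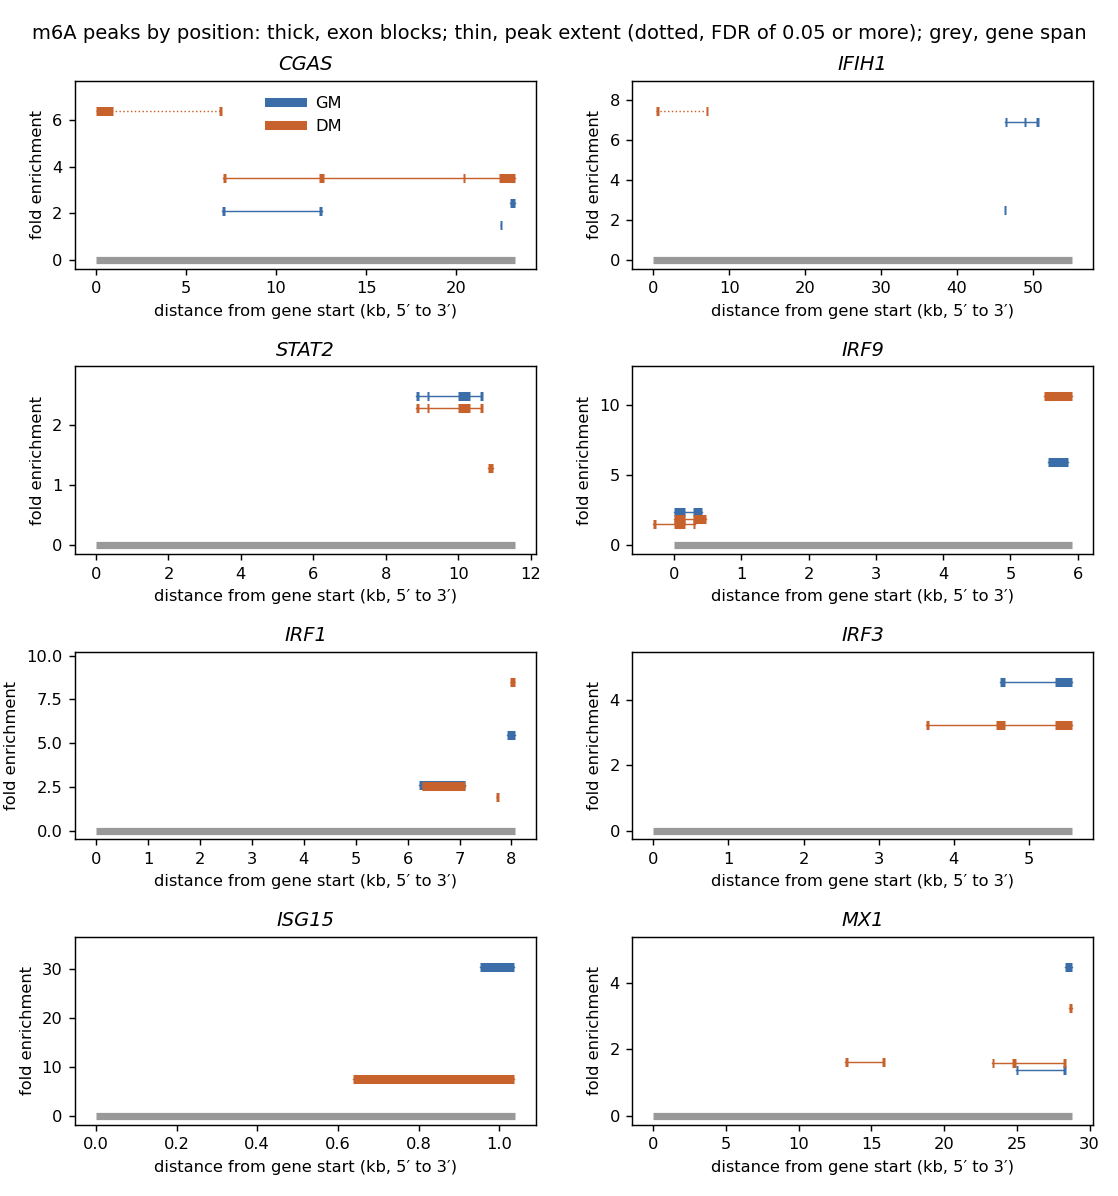
m6A peaks of the 8 genes with peaks in GM (blue) and DM (orange), by distance from the gene start (x axis, kb, 5′ to 3′) and fold enrichment over input (y axis, from 0), with thick exon blocks, thin peak extents (dotted at an FDR of 0.05 or more) and the gene span in grey. The ISG15 peak in GM reaches 30.5, and the STAT2 exon peak has the same extent in both groups.

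Among the 9 genes, 8 pairs of 1 GM and 1 DM peak could be compared, of which 3 changed by over 1.5-fold, 2 higher and 1 lower in DM, beside 25.0% of the 10239 such pairs in all genes (14.2% higher and 10.8% lower). The largest ratio was that of ISG15, whose 3′ end peak had a fold enrichment of 30.5 in GM (chr16:51464069-51464155, FDR 8.9e-08) and of 7.45 in DM (chr16:51464069-51464470, FDR 9.3e-04). The log2 ratio was -2.03, but the GM peak was 87 nt long and the DM peak 402 nt, so the values cover different stretches, and 98.6% of all pairs changed less. This pair was no longer formed where at least 50% of both peaks had to overlap. The input level of ISG15 was under 1 FPKM on average in both groups.

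IRF9 carried a peak near its 3′ end with a fold enrichment of 5.90 in GM (chr10:20986993-20987290) and 10.6 in DM (chr10:20986934-20987350). The log2 ratio was 0.85, and the DM peak of 417 nt held the whole GM peak of 298 nt. At the 5′ end of IRF9 the GM list had 1 peak of 2.36 and the DM list had 2, of 1.88 and 1.49. Each of these peaks lay in part over the 335 bases shared with RNF31 on the same strand. They cannot be assigned to either gene by strand, and the DM peak of 1.49 also reached beyond the start of IRF9. The third changed pair lay over the last bases of IRF1, with a fold enrichment of 5.44 in GM (150 nt) and 8.52 in DM (90 nt). Its DM peak had an FDR of 0.074, so only the ISG15 and IRF9 pairs changed among peaks with an FDR under 0.05 in both groups. After centring on the median ratio of all pairs the log2 ratio of the IRF1 pair was 0.57, under 1.5-fold.

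The main 3′ UTR peak of IRF1 had a fold enrichment of 2.63 in GM (892 nt) and 2.52 in DM (833 nt), a log2 ratio of -0.06, while the input FPKM of IRF1 fell by the ratio of 2.52 given above. In MX1 the 3′ UTR peak stood at 4.47 in GM (476 nt) and 3.25 in DM (239 nt), a log2 ratio of -0.46. A GM peak of 60 nt from exon 12 on (1.38) lay inside a DM peak of 387 nt from exon 11 on (1.59). In both MX1 pairs the values therefore cover different stretches. The STAT2 peak, which began in exon 20 of 23, had the same 478 nt in both lists and fold enrichments of 2.48 and 2.29 (log2 ratio -0.11). The IRF3 peak at the 3′ end had 4.55 in GM (298 nt) and 3.21 in DM (388 nt), a log2 ratio of -0.50. The DM peak held the whole GM peak, so the IRF3 values also cover different stretches. IRF1 and MX1 had the largest falls in FPKM of the 7 tested genes. Their longest 3′ UTR peaks were within 1.5-fold between groups, whereas the IRF1 pair over its last bases was not (5.44 and 8.52). Only 25.0% of all pairs changed by over 1.5-fold, and a link between enrichment and FPKM was not tested.

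**Figure D5:**
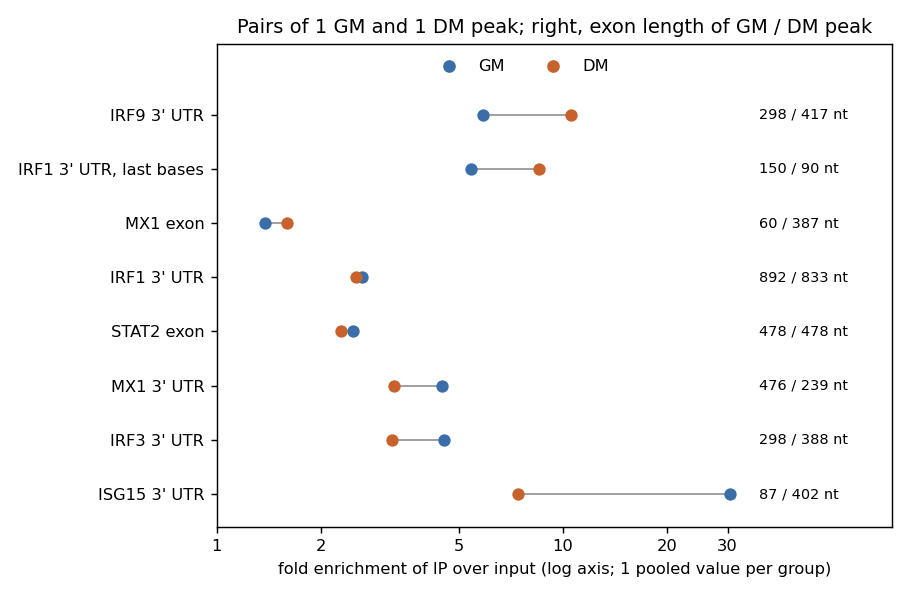
Fold enrichment of precipitated RNA over input (x axis, log scale) in the 8 pairs of 1 GM (blue) and 1 DM (orange) peak, 1 pooled value per group with no error, with exon lengths of the GM and DM peak at the right. ISG15 (30.5 and 7.45) has the widest gap, and STAT2 (2.48 and 2.29) has peaks of equal length.

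CGAS and IFIH1 had no such pair. In CGAS, 3 GM peaks with fold enrichments of 2.45, 1.48 and 2.11 overlapped a single DM peak of 1230 nt with 3.51 (FDR 3.2e-06), which ran over exon blocks of the coding part and the 3′ UTR. CGAS had a further DM peak at its 5′ UTR with 6.39, at an FDR of 0.10. In IFIH1 the GM peaks lay from exon 11 of 16 on, with 2.47 and 6.90, whereas the only DM peak lay from exon 1 on, with 7.45 and an FDR of 0.13, so none was shared. Both sensors were also among the 4 lowest genes by FPKM in each group.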

How the data were processed

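Reads were trimmed and aligned to Bos taurus ARS-UCD1.2 with HISAT2, and the authors computed FPKM per gene and input library with StringTie. The deposited peak lists, 1 per group, give the ratio (fold enrichment) of precipitated RNA over input, a p-value, and log10 p and FDR as a score without bounds. Their columns are those of exomePeak; the study's methods name MACS2 for peaks of single samples and exomePeak for differential peaks. The strand setting of the FPKM counting and the tool versions are not given in the sources used here. Libraries were made strand-specific by dUTP.

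FPKM were filtered at a mean of 0.5, transformed as log2(FPKM + 1) and tested with limma 3.58.1 (variance trend, GM and DM input libraries only, no covariate) in R 4.3.3, with Benjamini-Hochberg adjustment. FPKM is not a count, so no count test was run. The fit was tested on simulated data. Of the genes under the filter, only IFIH1 and IRF7 were given an exact permutation test. Peaks were paired by at least 1 shared exonic base, and a ratio over 1.5 was called a change. Of the lists' genes, the text names those past both thresholds (adjusted p under 0.05, over 1.5-fold) and the most abundant of each list, with exceptions stated beside them; IFNK, the other ligand row of the list, is a further one. The 9 genes and all lists were chosen with earlier results of these data known. Alternatives were pseudocounts of 0.1 and 0.5, no filter or one at 1 FPKM, TPM, size factors, a replicate block, no variance trend, other call thresholds, and the omission of each library. Sequences were not used here, and some genes of the lists enter the counts but are not reported singly here.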

Additional observations from a re-analysis of the deposited data

How the results depend on the processing

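Leaving out each library in turn gave 3 to 6 of the 9 genes with a call (3 without GM library 1 or DM library 1), 0 to 2 that rose (0 without GM library 1 or DM library 1, 1 without DM library 3), and 4 to 8 pathway genes that rose (4 without GM library 1 or DM library 1). Size factors gave 13 pathway genes that rose, and TPM gave 14 that rose and 15 that fell. Pseudocounts of 0.1 and 0.5 each gave 13 differentially expressed pathway genes in place of 10, and 3 of the 9 genes in place of 2. At a change over 2-fold, 3 pathway genes were differentially expressed and 1 of the 8 pairs of m6A peaks changed. With peaks at an FDR under 0.05, with 50% overlap and with centring, 2 pairs changed, and 50% overlap left 6 pairs without that of ISG15. Without 1 library the log2 fold change of ISG15 ran from -0.25 to 0.08, with the sign reversed without DM library 2, and reversed signs under TPM were 0.04 for ADAR, 0.02 for IRF2 and 0.06 for PTPN11; the cause was not tested. With the replicate number as a block, 4 of the 9 genes had a call, 1 that rose and 3 that fell (adjusted p = 0.067 for STAT2 and 0.087 for IRF3, limma), and 25 pathway genes had a call. The labels do not say whether equal numbers pair the samples. Deviations of same-numbered libraries correlated at -0.079, -0.123 and -0.208 across genes, and no library correlated best with its own number. With 3 libraries per group, deviations from the group means cannot decide whether the samples were paired. FPKM without read counts gives no counting error, 3 libraries per group allow no exact p below 0.10, and the pooled peak values have no error.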

Other observations

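ISG12(B), an interferon-induced gene of the IFI27 family outside the lists, was noticed after the values were seen. It had 36.6, 37.9 and 38.2 FPKM in GM and 7.82, 9.03 and 9.42 FPKM in DM, a log2 fold change of -1.99 (SE 0.070, limma adjusted p = 4.8e-07), with all DM libraries below all GM libraries. IFI27 itself, on the effector list, stood under the filter at 0.400 ± 0.148 and 0.407 ± 0.135 FPKM, and its groups overlapped. Of the 11 effector rows under the filter, 5 had all DM libraries below all GM libraries and 6 overlapped, beside 18% of all genes under the filter that did not overlap in either direction. Of the 5, also noticed after their values were seen and not tested, XAF1 stood at 0.389 and 0.0339 FPKM in GM and DM, GBP2 at 0.235 and 0.0121 and CXCL9 at 0.211 and 0.0194.

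In the deposited Gene Ontology terms, chosen after values were seen, 8 of the 9 genes carry the term defense response to virus. Of the 60 other tested genes with the term, 6 rose (10%) and 16 fell (26.7%), beside 16.1% and 26.7% of all tested genes. In this term 1 of the 60 was differentially expressed as higher and 9 as lower in DM, beside 4.90% and 6.97%. Over the 9 terms looked at, which share genes, the share of other genes that fell ran from 22.5% (KEGG RIG-I-like receptor signaling) to 60% (positive regulation of type I interferon production, with 5 other genes tested), with 36.5% of 85 in innate immune response and 37.5% of 32 in response to virus. The share that rose ran from 0 to 14.1%.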
